A study of Mus musculus with 9 samples.

Results

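The miR-130 and miR-301 family is a group of microRNAs (miRNAs) from the hairpins of miR-130a, miR-130b, miR-301a and miR-301b. Its members were taken as every listed row whose name starts with mmu-miR-130a-, mmu-miR-130b-, mmu-miR-301a- or mmu-miR-301b-, which gave 7 of the 1140 listed rows. These were mmu-miR-130a-3p, mmu-miR-130a-5p, mmu-miR-130b-3p, mmu-miR-130b-5p, mmu-miR-301a-3p, mmu-miR-301a-5p and mmu-miR-301b-3p, written below without the prefix of the mouse. Whole livers of 9 male C57BL/6 mice were profiled by small RNA sequencing to follow miRNAs in fibrosis and after its cause was withdrawn. Control mice (n = 3) were injected intraperitoneally with normal saline for 8 weeks. TAA mice (n = 3) were injected with thioacetamide (TAA), a hepatotoxin that leads to liver fibrosis, over the same 8 weeks. Recovery mice (n = 3) had the same TAA course followed by 8 weeks without injections, so recovery and the later age at death cannot be told apart. All mice were 8 weeks old at the start, and each library came from a different mouse. In whole liver, fewer cells of a type and less RNA per cell cannot be told apart.

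A miRNA guides silencing by pairing its seed, the bases near its 5′ end, with sites in the 3′ untranslated regions of messenger RNAs. Each hairpin can release a strand from its 5′ arm (5p) and one from its 3′ arm (3p), and the strands of one hairpin have different seeds and therefore different targets. The 3p strands of this family share a seed and are known repressors of Pparg, the nuclear receptor whose activity keeps hepatic stellate cells, the main collagen-producing cells of the fibrotic liver, in their resting state.

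The mature sequences are shown because they separate the family into strands that share a target seed and strands that do not. They were taken from RefSeq (GRCm38.p6) for the 6 members found there, and bases 2 to 8, the seed, are in capitals. The strands of the 3′ arms were as follows.
miR-130a-3p: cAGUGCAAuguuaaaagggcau
miR-130b-3p: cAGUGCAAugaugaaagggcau
miR-301a-3p: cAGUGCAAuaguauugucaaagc
The strands of the 5′ arms were as follows.
miR-130a-5p: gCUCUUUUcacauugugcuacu
miR-130b-5p: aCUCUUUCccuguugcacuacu
miR-301a-5p: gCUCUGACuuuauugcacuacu

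The 3 strands of the 3′ arms had the same seed, AGUGCAA, and no listed row outside the family carried it among the 935 rows matched by name. miR-130a-3p and miR-130b-3p shared their first 10 bases and differed at 2 of 22 positions, while miR-301a-3p shared the first 9 bases with both and then diverged. The 3 strands of the 5′ arms had 3 different seeds. miR-130b-5p and miR-301a-5p ended in the same 10 bases, UUGCACUACU, which hold UUGCACU, the reverse complement of the family seed. This stretch was not found in miR-130a-5p.

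The hairpins are shown with both arms in capitals because the arms turned out to be very unequal in the counts.
Mir130a: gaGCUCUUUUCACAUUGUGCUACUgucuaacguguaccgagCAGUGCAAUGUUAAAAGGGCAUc
Mir130b: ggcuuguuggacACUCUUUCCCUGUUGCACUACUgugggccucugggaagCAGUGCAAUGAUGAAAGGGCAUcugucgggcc
Mir301: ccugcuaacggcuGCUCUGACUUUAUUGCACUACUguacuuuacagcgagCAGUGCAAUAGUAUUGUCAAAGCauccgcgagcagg

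In GRCm38, named mm10 in the submitters' notes, Mir130a lies at chr2:84741115-84741178 on the minus strand. It overlaps no annotated protein-coding gene, and the nearest one, Gm19426, is 991 bp away. Mir301, the gene of miR-301a, lies at chr11:87113004-87113089 on the plus strand in an intron of Ska2, a gene of chromosome segregation, in the same orientation. Mir130b (chr16:17124061-17124142) and Mir301b (chr16:17124400-17124496) lie 257 bp apart on the minus strand, both in an intron of 2610318N02Rik in its orientation. The family therefore comes from 3 places in the genome, 1 of which holds a pair of hairpins.

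The libraries held 9071847 to 12983378 counts, of which only 186 to 482 per library belonged to the family. Values are counts, or counts per 1000000 counts (CPM) on effective library sizes scaled by TMM, a method that assumes that most miRNAs do not change. The scale matters here, because TMM factors differed between the groups, at 0.738 to 0.792 in control, 1.43 to 1.63 in TAA and 0.766 to 0.887 in recovery libraries. Scaling by library totals instead, as in the TPM values that the authors deposited, moved the median log2 fold change over all rows by 1.12 for TAA against control, by -0.86 for recovery against TAA and by 0.18 for recovery against control. Changes are therefore given on both scales, TMM first.

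miR-130a-3p was the main member in all 9 livers. Its counts were 278, 148 and 191 in control, 312, 370 and 312 in TAA and 200, 190 and 221 in recovery livers. On the TMM scale this was 24.0 ± 3.95 CPM in control, 21.7 ± 2.94 CPM in TAA and 19.7 ± 2.02 CPM in recovery livers (SD, n = 3). The 3 groups overlapped on this scale. It held 86.2% ± 6.16 of the family counts in control, 73.0% ± 6.79 in TAA and 84.0% ± 1.13 in recovery livers (SD, n = 3), so the mean share of the other members was highest in the fibrotic liver.

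The next members in abundance were 3 strands of the 5′ arms. miR-130b-5p had counts of 12, 13 and 11 in control, 89, 46 and 34 in TAA and 9, 8 and 8 in recovery livers. Every TAA liver was above every other liver, with TAA replicate 1 well above the other two. miR-301a-5p had counts of 5, 1 and 4 in control, 34, 30 and 27 in TAA and 6, 1 and 8 in recovery livers, with the TAA livers again apart from all others.

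miR-130a-5p, the partner strand of miR-130a-3p, had counts of 7, 24 and 12 in control, 29, 26 and 24 in TAA and 22, 20 and 25 in recovery livers. The control livers alone spread over most of its range.

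The remaining strands carried the family seed but very few counts. miR-130b-3p had no count in any control liver, 11, 7 and 7 counts in TAA and 2, 3 and 1 in recovery livers. miR-301a-3p had 1, 0 and 1 counts in control, 2, 3 and 1 in TAA and 2, 1 and 1 in recovery livers. miR-301b-3p was seen only as 2 counts in TAA replicate 1, so its changes were not measurable at this depth. A count of 0 allows up to 3 counts, and all limits of this kind cover the counting error of the 0 only.

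**Figure D1:**
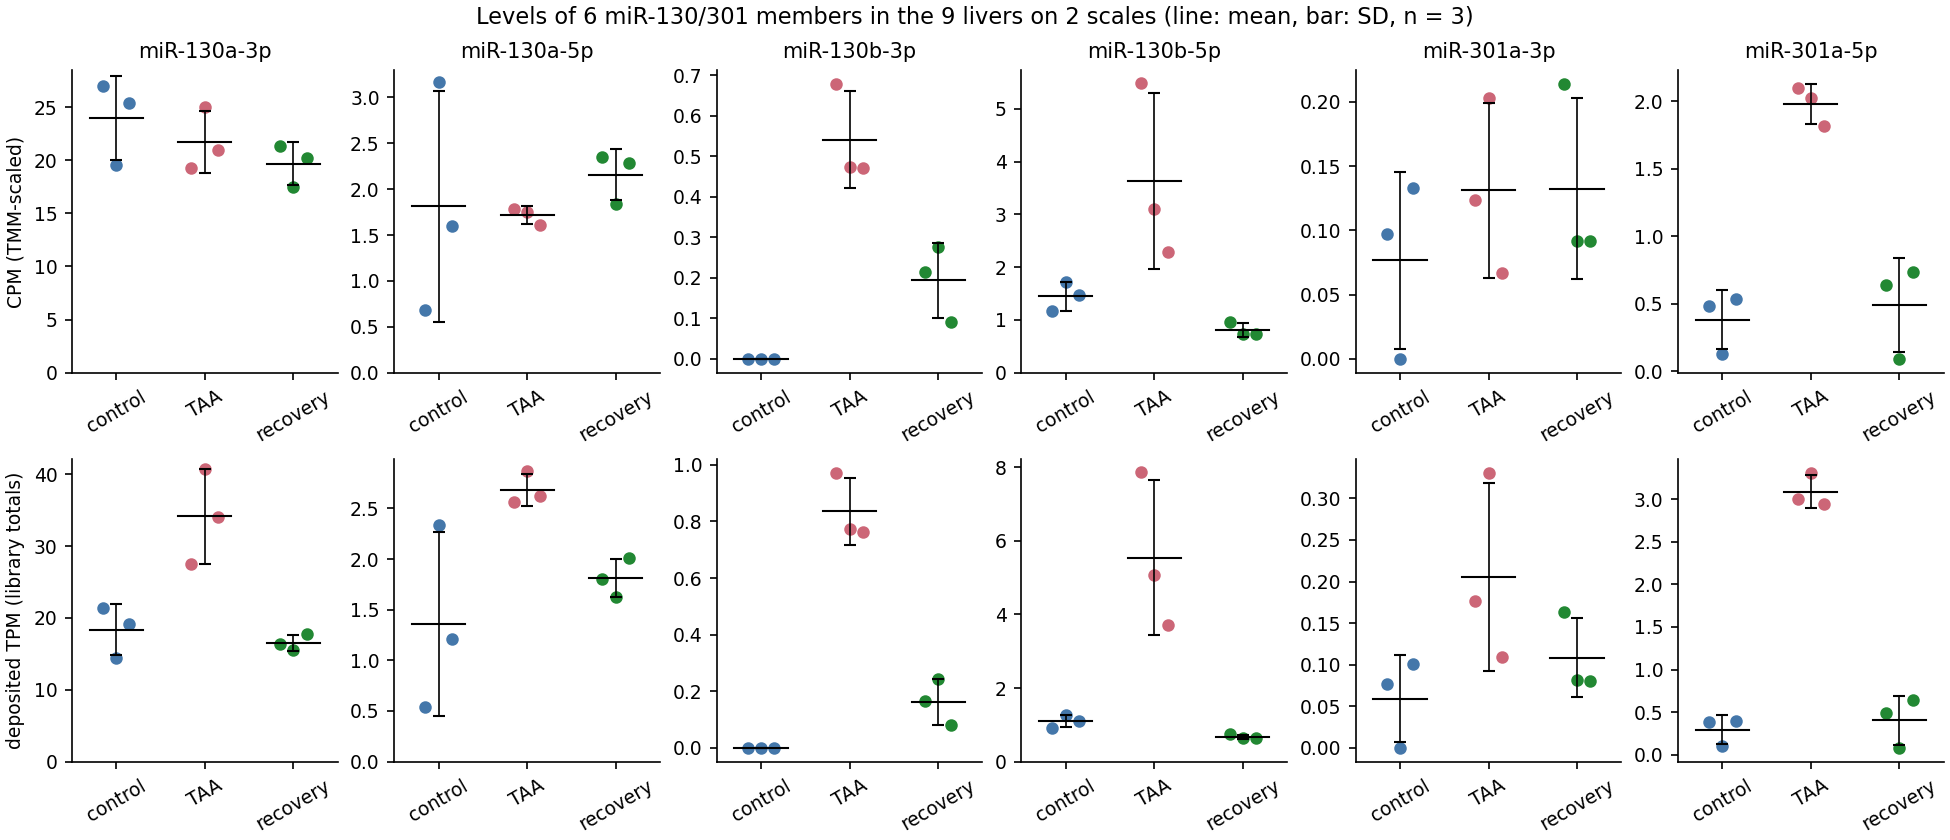
Level of 6 members in each liver, as CPM scaled by TMM (top row) and as deposited TPM, scaled by library totals (bottom row). Points are livers, lines are means and bars are SD (n = 3 per group). miR-130b-5p, miR-301a-5p and miR-130b-3p were higher in all 3 TAA livers than in any control or recovery liver on both scales. On TPM the same held for miR-130a-3p and miR-130a-5p, and miR-301a-3p was higher in all TAA than in all control livers. On TMM miR-130a-3p overlapped between all groups, and miR-130a-5p and miR-301a-3p overlapped between TAA and control. The share of all rows separated in this way was not counted on these scales. By another measure, the ratio to miR-130a-3p, it was 37.9% for TAA above control alone and 20% for recovery below TAA alone. On library totals, the scale of the deposited TPM, 57.4% of rows tested were called higher in TAA than in control.

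Ordered by mean CPM in control livers, miR-130a-3p (24.0) stood far above miR-130a-5p (1.81 ± 1.26), miR-130b-5p (1.45 ± 0.274) and miR-301a-5p (0.384 ± 0.219, SD, n = 3). miR-130a-5p and miR-130b-5p overlapped between livers and did not differ beyond their spread. In TAA livers the order changed to miR-130b-5p (3.63 ± 1.67), miR-301a-5p (1.98 ± 0.148) and miR-130a-5p (1.72 ± 0.0941), followed by miR-130b-3p (0.540 ± 0.120). The livers of no neighbouring strands in this order overlapped in CPM. The counts of miR-301a-5p (34, 30 and 27) and miR-130a-5p (29, 26 and 24) did overlap, and which of these was higher was not tested. In recovery livers the order was miR-130a-5p (2.16 ± 0.281), miR-130b-5p (0.810 ± 0.132), miR-301a-5p (0.489 ± 0.347) and miR-130b-3p (0.194 ± 0.0936). There miR-130b-5p and miR-301a-5p met at 8 counts in recovery replicate 3, and miR-301a-5p overlapped miR-130b-3p. Levels of mature miRNAs, which are nearly equal in length, are compared here as counts, and the ligation steps of small RNA libraries can favour some sequences over others.

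The comparison of TAA with control asks which members accompany fibrosis. miR-301a-5p rose by 2.22 on the log2 scale (SE 0.44, false discovery rate, FDR = 0.00398) and miR-130b-5p by 1.23 (SE 0.39, FDR = 0.0308), both by the edgeR quasi-likelihood test with Benjamini-Hochberg adjustment over 420 rows. miRNAs were called differentially expressed (DEMs) when their FDR was under 0.05 and they changed at least 2-fold. By this rule 2 of the 4 members that passed the low-count filter were higher and none was lower. Neither of these 2 members passed the filter on the control livers alone. The count of rises was thus drawn from members selected by the TAA livers, where they were high, and neither could readily have been called lower. Without the filter the FDR was 0.00451 for miR-301a-5p and 0.0359 for miR-130b-5p. Over all rows tested, 25% were higher in TAA and 16.7% lower, so these 2 members belonged to a large group of miRNAs that moved the same way. Under library totals 57.4% of rows were higher and the same 2 members were called, with log2 fold changes of 3.31 for miR-301a-5p and 2.34 for miR-130b-5p.

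The call of miR-130b-5p was lost when any control library or TAA replicate 1 was left out. Its FDR was 0.0948, 0.0571 and 0.0823 without control replicate 1, 2 and 3, and without TAA replicate 1 its log2 fold change was 0.87 with an FDR of 0.0643. miR-301a-5p kept an FDR of at most 0.0166 whichever library was left out.

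miR-130a-3p, the abundant member, had a log2 difference of -0.22 (SE 0.21, FDR = 0.389) between TAA and control by edgeR, which is within the spread between livers. Under library totals the sign turned, with a log2 difference of 0.89 (SE 0.23, FDR = 0.00838), below the median shift of 1.12 that this scaling gave all rows. The direction of miR-130a-3p in fibrosis thus depended on the scale. The estimate for miR-130a-5p also turned, at -0.13 (SE 0.51, FDR = 0.848) on TMM and 0.997 (FDR = 0.0981) on library totals by edgeR.

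miR-130b-3p was too rare for the filter. It had 25 counts in the TAA group and none in the control group. Against a floor of 3 counts over the control group, it was 4.60-fold higher in TAA on TMM and 9.36-fold higher on library totals. These values leave out the counting error of the 25 counts, so they are not lower limits. All 3 TAA livers were above all 3 control livers, for which an exact two-sided permutation test gave p = 0.1, the smallest value that 3 against 3 allows. The share of all rows separated in this way was not counted, here and for the permutation tests below. Without the filter, edgeR gave an FDR of 0.00239, and DESeq2 gave an FDR of 0.0179, so that 3 members were called under each of these. miR-301a-3p had 6 counts in TAA and 2 in control, a TMM-scaled ratio of 1.66 with a 95% exact counting interval of 0.296 to 16.8.

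**Figure D2:**
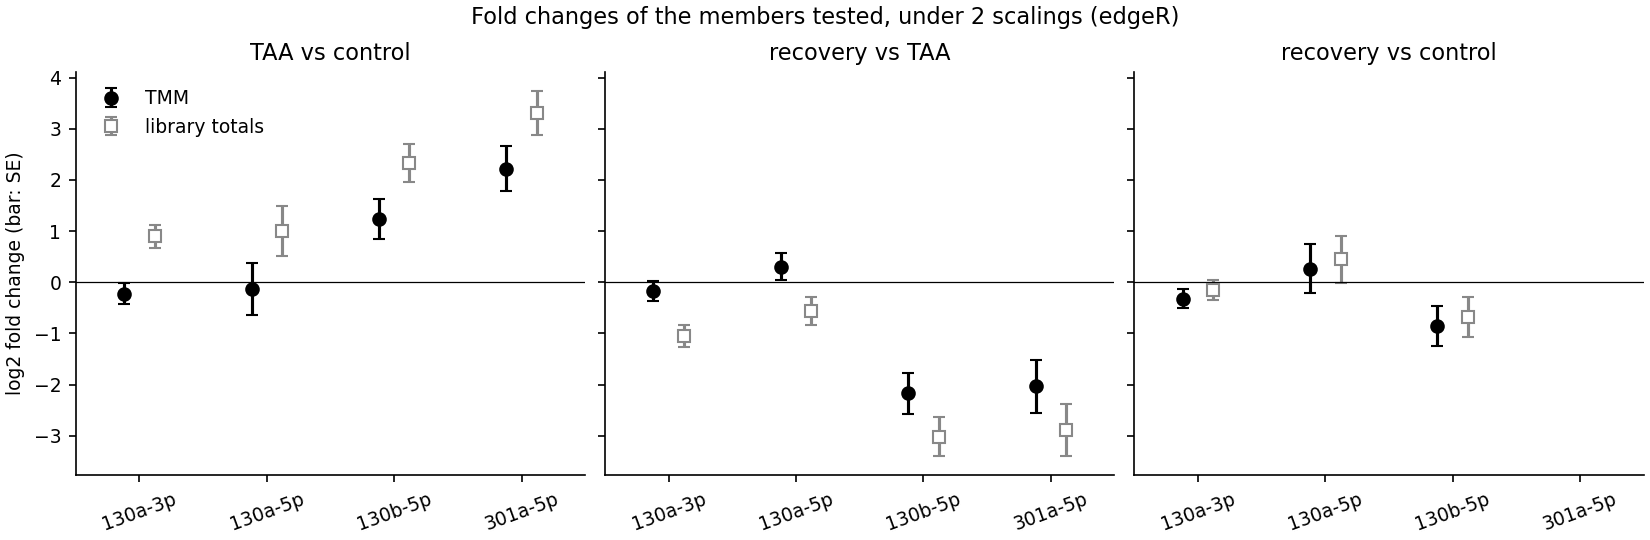
Log2 fold changes of the members that passed the low-count filter in the 3 comparisons (edgeR, bars are SE), with TMM scaling (filled circles) and with library totals (open squares). miR-130b-5p and miR-301a-5p stay on 1 side of 0 on both scales, whereas miR-130a-3p changes sign between the scales in TAA vs control, and miR-130a-5p does so there and in recovery vs TAA. miR-301a-5p was not tested in recovery vs control.

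After withdrawal the same strands fell. In recovery vs TAA, miR-130b-5p fell by 2.17 on the log2 scale (SE 0.40, FDR = 0.00486) and miR-301a-5p fell by 2.04 (SE 0.52, FDR = 0.0173) by edgeR. On library totals these differences were -3.02 (FDR = 0.000552) and -2.89 (FDR = 0.00217). Again 2 of 4 members tested were DEMs, beside 14.5% of all 440 rows tested that were lower and 10.2% that were higher in recovery. Both strands passed the filter only through the TAA livers, where they were high, so the count of falls was drawn from members selected by that group, and without the filter their FDRs were 5.47e-05 and 0.00424. The TAA livers served in both comparisons, so the fall is not independent of the rise. Without recovery replicate 1 the FDR of miR-301a-5p was 0.0533, whereas miR-130b-5p stayed at or below 0.026 without any 1 library.

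Neither strand of miR-130a passed the threshold on TMM in recovery vs TAA. miR-130a-3p had a log2 difference of -0.17 (SE 0.20, FDR = 0.54) and miR-130a-5p one of 0.30 (SE 0.27, FDR = 0.407) by edgeR. The recovery livers lay above all TAA livers in TMM-scaled CPM of miR-130a-5p (exact permutation p = 0.1, the smallest possible) and below them on library totals. On library totals, where 46.1% of rows were lower in recovery, miR-130a-3p passed the threshold at -1.04 (FDR = 0.00412) and 3 members were called, while miR-130a-5p turned to -0.56 (FDR = 0.0989). miR-130b-3p went from 25 counts in TAA to 6 in recovery, a TMM-scaled ratio of 0.354 (95% exact counting interval 0.119 to 0.883) and a ratio of 0.192 (0.0644 to 0.479) on library totals. Its groups did not overlap, and the exact permutation test gave p = 0.1, the smallest possible. The FDR of this strand was 0.228 without the filter in edgeR and 0.31 in DESeq2.

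The comparison of recovery with control asks what remains 8 weeks after withdrawal. None of the 3 members tested was a DEM by edgeR, 1 had an unadjusted p below 0.05, and DESeq2 also called 0. Over all 391 rows tested, 10.5% were higher in recovery and 0.767% lower. miR-130b-5p had a log2 difference of -0.86 (SE 0.38, p = 0.0499, FDR = 0.217), and its 3 recovery livers lay below all 3 control livers by TMM-scaled CPM (exact permutation p = 0.1, the smallest possible). miR-130b-5p passed the filter only through the control livers, where it was higher, so a rise could not readily have been called. Without the filter its FDR was 0.530 in edgeR. As a ratio to miR-130a-3p within each library, its log2 difference was -0.53 and the recovery and control livers overlapped. miR-130a-3p differed by -0.32 (SE 0.19, FDR = 0.382) and miR-130a-5p by 0.26 (SE 0.48, FDR = 0.836) by edgeR. On library totals the differences were -0.68 for miR-130b-5p, -0.15 for miR-130a-3p and 0.45 for miR-130a-5p, with FDRs of 0.39, 0.75 and 0.659. miR-301a-5p did not pass the filter, and its pooled counts of 10 in control and 15 in recovery gave a TMM-scaled ratio of 1.22 (95% exact counting interval 0.513 to 3.04, exact permutation p = 0.6, n = 3) and one of 1.35 on library totals. miR-130b-3p, at 0 in control, had 6 counts over the recovery livers. Against the floor of 3 counts, this was 1.63-fold higher on TMM and 1.80-fold higher on library totals. These 2 values leave out the counting error of the 6 counts, so they are not lower limits. The FDR of this strand was 0.394 without the filter in edgeR, so a difference from control was not shown.

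Summed over its 7 rows, the family was at 27.7 ± 2.76 CPM in control, 29.8 ± 2.68 in TAA and 23.5 ± 2.71 in recovery livers on TMM (SD, n = 3). Control (24.5 to 29.5) overlapped TAA (27.2 to 32.5), whereas all recovery livers (20.5 to 25.8) lay below all TAA livers. On library totals the sums were 21.2 ± 2.71, 46.5 ± 5.78 and 19.7 ± 1.51 CPM, and the TAA livers lay above all control and recovery livers.

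Ratios to miR-130a-3p within a library do not depend on either scale. miR-130b-5p was at 4.32%, 8.78% and 5.76% of miR-130a-3p in control livers, at 28.5%, 12.4% and 10.9% in TAA livers and at 4.5%, 4.21% and 3.62% in recovery livers. miR-301a-5p was at 1.80%, 0.676% and 2.09% in control, 10.9%, 8.11% and 8.65% in TAA and 3.0%, 0.526% and 3.62% in recovery livers. For both strands every TAA liver was above every control and every recovery liver. The mean log2 ratio differed by 1.34 for miR-130b-5p and by 2.47 for miR-301a-5p between TAA and control, and by -1.87 and -2.12 between recovery and TAA. Among all rows tested, 37.9% had such a ratio higher in every TAA than in every control liver and 20% lower in every recovery than in every TAA liver, so this separation was common. The median difference over all rows was 0.36 for TAA against control and 0.07 for recovery against TAA.

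miR-130b-3p was at 0 in control livers, at 3.53%, 1.89% and 2.24% of miR-130a-3p in TAA livers and at 1.0%, 1.58% and 0.452% in recovery livers. Strands with the same seed were thus present at unequal levels, and miR-130a-3p outnumbered miR-130b-3p in each liver of each group.

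**Figure D3:**
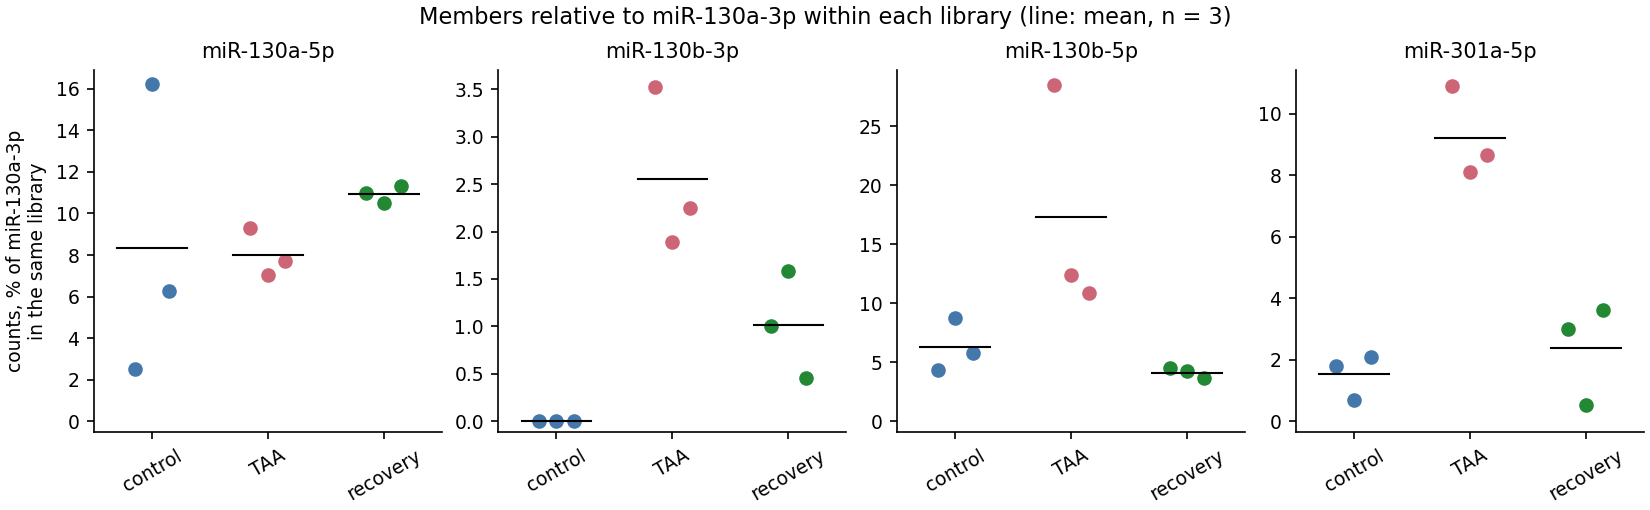
Counts of 4 members as a percent of the miR-130a-3p counts of the same library (vertical axes), by group. Points are livers and lines are means (n = 3). miR-130b-5p and miR-301a-5p lie at 8.11% or more in all TAA livers and at 8.78% or less in all others, and within each strand the TAA livers do not overlap the rest.

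The arms of the 3 hairpins were used in opposite ways. From miR-130a, 2222 of 2411 counts over the 9 libraries came from the 3p strand, a share of 92.2% (95% exact interval 91.0 to 93.2). From miR-130b, 31 of 261 counts came from the 3p strand (11.9%, 8.21 to 16.4), and from miR-301a 12 of 128 (9.38%, 4.94 to 15.8). The strand with the family seed was therefore the minor one in 2 of the 3 hairpins with both arms listed. A larger 5p than 3p count was common, in 117 of the 211 names that had both arms listed and at least 100 counts (55.5%). The sequences of miR-130a-3p and miR-130b-3p are close, and how the authors assigned reads that match several miRNAs is not given in the sources used here.

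By group, the 3p share of miR-130b was 0 of 36 counts in control, which allows a share of up to 8.33%, 25 of 194 in TAA (12.9%, 8.52 to 18.4) and 6 of 31 in recovery (19.4%, 7.45 to 37.5). For miR-301a it was 2 of 12, 6 of 97 (6.19%) and 4 of 19. Whether these shares differed between groups was not tested, since the counts rest on 3 livers a group and most livers had fewer than 10 counts of the 3p strand.

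Only miR-130a had enough counts on both arms for the test of arm ratios. Its log2 ratio of 5p to 3p differed by 0.29 between TAA and control (SE 0.54, FDR = 0.863), by 0.46 between recovery and TAA (FDR = 0.671) and by 0.75 between recovery and control (FDR = 0.99) by limma over 110 names with both arms. Over these names 4.55% were called between TAA and control, 5.45% between recovery and TAA and 0% between recovery and control, where 5 had an unadjusted p below 0.05. The calls between TAA and control included miR-122 (-0.79) with miR-122b (1.18) and miR-203 (1.04) with miR-203b (-1.25), which moved in opposite ways. These shares therefore count names. The 5p strand was 2.52%, 16.2% and 6.28% of miR-130a-3p in the 3 control livers, 9.29%, 7.03% and 7.69% in TAA livers and 11%, 10.5% and 11.3% in recovery livers. The control livers spread beyond the values of both other groups, and the recovery livers lay above all TAA livers. The share of all rows separated upward in this way was not counted. By mean log2 ratio to miR-130a-3p, the difference of the 5p strand between recovery and TAA exceeded that of 68.1% of rows tested. The 3 groups shared 1 estimate of the spread in the limma test. There the difference between recovery and control was 0.10 without control replicate 1 and 1.41 without control replicate 2.

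**Figure D4:**
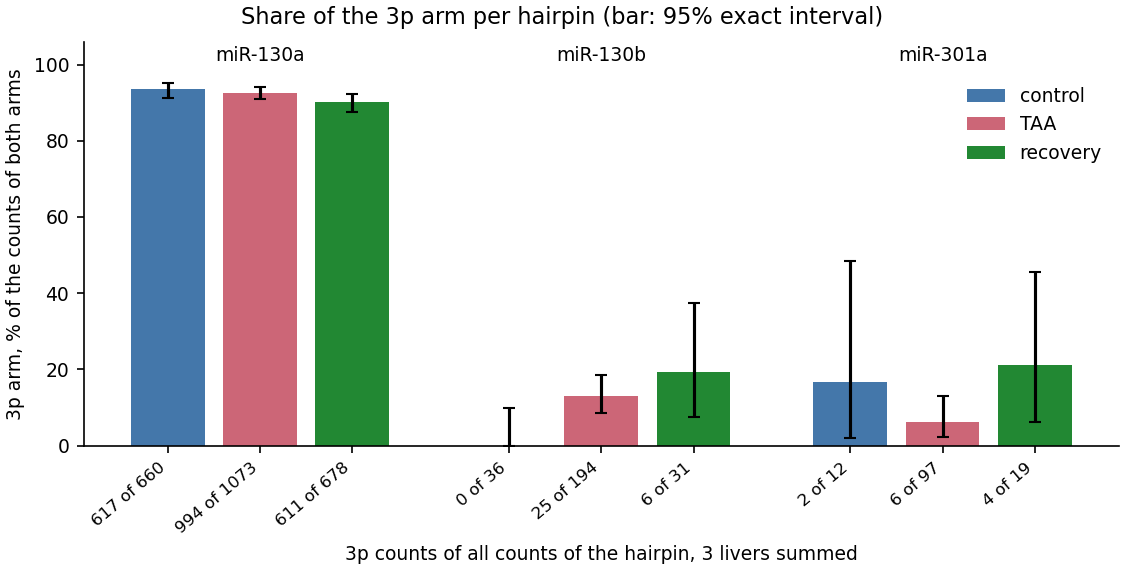
Share of the 3p strand in the counts of both arms of each hairpin (vertical axis, percent), with the counts of the 3 livers of a group summed under each bar. Bars carry 95% exact binomial intervals, which cover counting error only. The 3p strand takes at least 90.1% of miR-130a and at most 21.1% of miR-130b and miR-301a in each group.

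Pparg is the target for which the family is best known in fibrosis. Its annotated 3′ untranslated region in GRCm38 (204 bases) holds 1 match to TTGCACT, the DNA form of the complement of seed bases 2 to 8, starting 42 bases after the stop codon. It also holds 1 match to ACTGTGA, the complement of the seed of miR-27, another known repressor of Pparg, 46 bases further on. Both are shown with the match in capitals, on the plus strand of chromosome 6, and only the sense strand was searched.
miR-130 and miR-301 match, chr6:115490226-115490254: ccttctattgaTTGCACTattattttgag
miR-27 match, chr6:115490272-115490300: ctaagaaatttACTGTGAaaaagcattta

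The family match is followed by an A. TTGCACT occurred in 9.98% of the longest 3′ untranslated regions of 21028 genes, and in 1.16% of the 1380 of similar length to that of Pparg. ACTGTGA occurred in 16.0% and 2.46%. These matches describe the letters of the window and do not show that a site is used, and the matched mRNA profiles were not analysed here.

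miR-27a-3p and miR-27b-3p, which have the seed UCACAGU, were not DEMs in any comparison on TMM. Their sequences differ near the 3′ end.
miR-27a-3p: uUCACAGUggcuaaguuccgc
miR-27b-3p: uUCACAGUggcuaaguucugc
miR-27b-3p was far more abundant than any member of the miR-130 and miR-301 family, at 7842 ± 300.5 CPM in control, 6999.8 ± 549 in TAA and 6843 ± 726 in recovery livers (SD, n = 3). It had log2 differences of -0.25 for TAA against control (FDR = 0.0383) and -0.05 for recovery against TAA (FDR = 0.746) by edgeR on TMM, and of 0.87 and -0.92 on library totals. miR-27a-3p had 0.61 (FDR = 0.0342) and -0.51 (FDR = 0.0814) on TMM by edgeR, and 1.74 and -1.39 on library totals, where it was called in both. The sign for miR-27b-3p in TAA vs control, like that for miR-130a-3p, thus turned with the scale.

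The group of miR-148 and miR-152 has a seed that is the family seed moved by 1 base, which is why it is shown here.
miR-148a-3p: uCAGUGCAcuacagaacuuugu
miR-148b-3p: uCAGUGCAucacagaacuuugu
miR-152-3p: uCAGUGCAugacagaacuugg
The complement of this seed, TGCACTG, had no match in the Pparg region, while 12.7% of the longest 3′ untranslated regions held it (2.03% of those of similar length). Of the 3, miR-148a-3p passed both DEM thresholds, changing by -1.64 on the log2 scale for TAA against control (FDR = 0.000114) and 1.35 for recovery against TAA (FDR = 0.00144) by edgeR on TMM. On library totals these were -0.52 and 0.50, under the fold threshold. miR-148b-3p and miR-152-3p were not DEMs, at -0.17 and -0.52 in TAA vs control on TMM and 0.95 and 0.60 on library totals.

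miRNAs that mark cell types of the liver moved across the same livers. The summed CPM of 3 hepatocyte miRNAs was 361776 to 376828 in control, 107376 to 113874 in TAA and 273024 to 401649 in recovery livers, and 3 of 3 were lower in TAA and higher again in recovery on TMM, but none was called on library totals. The 5 biliary epithelial miRNAs, of the miR-200 family, summed to 582 to 764, 3332 to 5535 and 1239.9 to 1415 CPM. Of these, 5 of 5 were higher in TAA and lower in recovery on both scales. Still higher in recovery than in control were 1 on TMM and 3 on library totals. Of 5 mesenchymal miRNAs 3 were higher in TAA and lower in recovery on TMM, with sums of 25482 to 31112, 18034 to 39509 and 21871 to 35804 CPM dominated by miR-143-3p, and on library totals 4 were higher and 3 lower. On TMM, 1 of 4 leukocyte miRNAs was higher in TAA and 1 lower in recovery (sums 187 to 208, 262 to 309.9 and 141 to 217 CPM) and 0 of 2 endothelial miRNAs were called (8478 to 8952, 5700.4 to 6896 and 8348 to 9123 CPM). On library totals 4 of 4 leukocyte miRNAs were higher in TAA and 4 of 4 lower in recovery, and 0 of 2 endothelial miRNAs were called. Of 3 red cell miRNAs 1 was lower in TAA and in recovery than in control (sums 789 to 1339, 206 to 461 and 329 to 622 CPM) on TMM, and none was called on library totals. No marker was at 0 in any group. The part of the cell makeup in the values of miR-130b-5p, miR-301a-5p and miR-130b-3p was not tested.

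The pattern of miR-130a-3p over the 9 livers was most like that of miR-23b-3p (Pearson's r of 0.726 on log2(CPM + 1)), miR-339-5p (0.576) and let-7d-3p (0.551), among 224 miRNAs with a mean of at least 10 CPM. These correlations are a description over livers of 3 groups that share their scaling.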

How the data were processed

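Small RNA libraries of 9 mouse livers, 3 per group by their labels, were analysed. Per the labels and the methods of the study, the authors extracted RNA with TRIzol, prepared libraries with NEBNext reagents, mapped reads to mm10 and miRBase with Bowtie (1.3.0 in the submitters' processing notes) and deposited unnormalized read counts and TPM per mature miRNA. The deposited TPM equalled the count divided by the column total, times 1000000. The handling of reads with several matches is not given in the sources used here. Members and lists were chosen with earlier results of these data known.

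Pairs of groups (6 samples) were compared in edgeR 4.0.16 (R 4.3.3): filterByExpr (minimum count 10), TMM, quasi-likelihood F test and Benjamini-Hochberg adjustment over all rows. The study used DESeq2, which was run as an alternative (1.42.0). SE was the log2 fold change over the square root of F. limma 3.58.1 tested log2((5p + 0.5)/(3p + 0.5)) for names listed with both arms and a mean of at least 10 counts per arm. Pooled ratios carry 95% exact intervals. The fits were tested on simulated data, in which changes were set only in rows more abundant than every member but miR-130a-3p. The simulation thus does not show how the fits perform for changes in the rarer members. With 9071847 to 12983378 counts per library, 1 count was near 0.1 CPM. Names were given for the members, for rows with their seed, for miR-27 and miR-148 and miR-152, for the 3 miRNAs most like each member of at least 10 CPM and for cell type markers. Sequences came from RefSeq GRCm38.p6 and positions from GENCODE M21. Alternatives covered scaling, tool, pseudocount, filter, a summed miR-301a/b-3p, a fit of all 9 samples, a test against a fold change of 2, the replicate block and each library left out.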

Additional observations from a re-analysis of the deposited data

How the results depend on the processing

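Between TAA and control 2 members were called, and 2 between recovery and TAA. Each count was 0 with a minimum mean of 10 CPM, which leaves only miR-130a-3p, and 1 when a 2-fold change was the null of the test, where the FDR was 0.315 for miR-130b-5p (TAA vs control) and 0.12 for miR-301a-5p (recovery vs TAA). Over the fits without 1 library the count ran from 1 to 2 in each. No setting called a member in recovery vs control. Signs turned for values that did not pass the FDR threshold in the main fits. On library totals, limma on log2(TPM + 1) and limma on log2(TPM + 0.1), miR-130a-3p in TAA vs control was 0.89, 0.86 and 0.89. Its FDRs there were 0.00838, 0.00754 and 0.00694, so its direction depended on the scale. In the same settings miR-130a-5p was 0.997, 0.71 and 1.13 in TAA vs control. It was -0.56, -0.39 and -0.54 in recovery vs TAA. None of these values of miR-130a-5p passed the FDR threshold. With 1 library left out, miR-130a-5p ran from -0.55 to 0.55 in TAA vs control (the latter without control replicate 2) and from -0.19 (without control replicate 1) to 0.91 in recovery vs control, miR-130a-3p from -0.20 to 0.017 (without TAA replicate 2) in recovery vs TAA, and the arm ratio of miR-130a from -0.36 (without control replicate 1) to 0.95 in TAA vs control. The arm ratio ran from 0.38 to 0.58 in recovery vs TAA and from 0.10 to 1.41 in recovery vs control. Library totals also moved the split of all DEMs from 105 higher and 70 lower to 241 and 4 for TAA against control, and from 45 higher and 64 lower to 4 and 203 for recovery against TAA. All DEMs numbered 85 (10 CPM minimum) and 104 (2-fold null) for TAA against control, 60 and 38 for recovery against TAA, and 13 (10 CPM minimum) for recovery against control. Samples with the same replicate number were not treated as paired. Of 9 such pairs 3 had deviations from group means correlated above 0.1, with r from -0.241 to 0.242. Pairs with different numbers ran from -0.297 to 0.244. With 3 libraries a group, these values cannot show whether samples were paired. With the replicate block, 2, 2 and 0 members were called and miR-130b-5p in TAA vs control had 1.19 (FDR = 0.035), so no call changed. A minimum of 50 counts per arm left miR-130a untested. The low counts limit every member but miR-130a-3p.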

Other observations

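Patterns over the 9 livers were also compared for the rarer members, with candidates of at least 1 CPM on average, a limit chosen after the values had been seen. Among 397 miRNAs, miR-130b-5p was most like miR-99b-3p, miR-96-5p and miR-17-5p, with Pearson's r of 0.938, 0.935 and 0.922 on log2(CPM + 1). The closest miRNAs to miR-130a-5p had lower values, 0.723 for miR-329-5p, 0.678 for miR-450b-3p and 0.614 for miR-511-3p. These are descriptions over 9 libraries that fall into 3 groups, so a shared difference between groups is enough to give a high value.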
